A study of Sus scrofa with 6 samples.

Results

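The CCAAT/enhancer-binding proteins (C/EBPs) were examined in the longissimus, the long muscle of the back, of pigs (Sus scrofa) with high or low intramuscular fat, the fat held within the muscle. All records of the deposited gene table whose symbol is CEBP followed by A, B, D, E, G or Z were taken, which gave 5 of 7661 records and 4 symbols. They are CEBPB on 2 records, CEBPD, CEBPG and CEBPZ, while CEBPA and CEBPE are not analysed here. RNA sequencing gave 6 libraries, 3 from the high and 3 from the low group, and the design text gives 3 pigs per group. Both groups were sampled from the same muscle by the same protocol, and the sources used here do not give breed, sex, age, diet or the fat content of each animal. Library totals ran from 25371989 to 28874691 reads in the high group and from 30139025 to 34813172 reads in the low group. The 7 muscle fibre marker records summed to between 90999.7 and 105472 CPM in every library, where CPM are counts scaled to a library total of 1e+06 reads and normalised by the trimmed mean of M-values (TMM).

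C/EBPs bind DNA as dimers through a basic region and a leucine zipper, and their members can pair with each other. C/EBP beta and C/EBP delta are switched on early when precursor cells become fat cells, and together they raise the factors that complete the process. The same pair is also induced by glucocorticoids and by cytokines of the interleukin-6 family, and C/EBP beta acts in muscle stem cells, where it holds back differentiation. C/EBP gamma lacks a strong activation domain and works mainly as a dimer partner. The product of CEBPZ shares the binding to CCAAT boxes in its name but has no leucine zipper of this kind, so it stands apart from the family.

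All 5 records had a lower estimate in the high group, from -0.93 to -0.02 on the log2 scale (high minus low), against 54.8% of all records with a negative value. Short records were negative more often, with 73.7% of those of at most 2 kb, which include the CEBPB and CEBPD records. CEBPB was 1.68-fold higher in the low group with no overlap of the libraries. CEBPD had the largest estimate but spread widely among the low libraries. CEBPG was lower to a smaller extent, and CEBPZ differed by less than its spread between libraries. None of the 5 records passed the threshold of 0.05 in edgeR's quasi-likelihood test with Benjamini-Hochberg adjustment over the whole table. That test called 0.144% of all records in either direction and 0.0131% as lower in the high group. DESeq2 and edgeR's exact test each called 2 of the 5 records, both of CEBPB, and limma-voom called 0. Of all records these tests, in that order, called 1.84%, 0.875% and 0.0131% as lower in the high group. At an unadjusted p under 0.05, 3 of the 5 records were lower (both CEBPB records and CEBPG), beside 8.41% of all records. The groups did not overlap in the same 3 records, with the high group below the low group, as in 13.3% of all records. These counts hold both CEBPB records, which are not independent of each other, as described below.

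CEBPB, the gene of C/EBP beta, was lower in all high libraries than in any low library. The record ENSSSCG00000024816 (chromosome 17, 57946112 to 57947682, plus strand) stood at 119, 115 and 139 TMM-normalised CPM in low libraries 1 to 3 and at 70.0, 70.5 and 80.9 in high libraries 1 to 3. The lowest low library was thus above the highest high library, and the gap between the groups was wider than the range within either. The means were 124 ± 13.0 and 73.8 ± 6.16 TMM-normalised CPM (SD, n = 3 per group). The log2 fold change was -0.75 (SE 0.13, 95% interval -1.06 to -0.44, edgeR quasi-likelihood adjusted p = 0.0910, unadjusted p = 6.19e-04). Ordered by unadjusted p it was number 48 of all 7661 records and number 6 of those lower in the high group.

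The call for CEBPB turned on the choice of test. DESeq2 gave -0.74 with an adjusted p of 2.35e-04 and edgeR's exact test gave -0.75 with an adjusted p of 0.0165. Both passed the threshold, which 1.84% of records did as lower in the high group in DESeq2 and 0.875% in the exact test. In the authors' deposited table the record has a false discovery rate of 0.0165, with a log2 ratio of 0.75 for low over high. The fold change stayed negative with each library left out, between -0.82 and -0.66, with quasi-likelihood adjusted p between 0.0709 and 0.291.

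**Figure D1:**
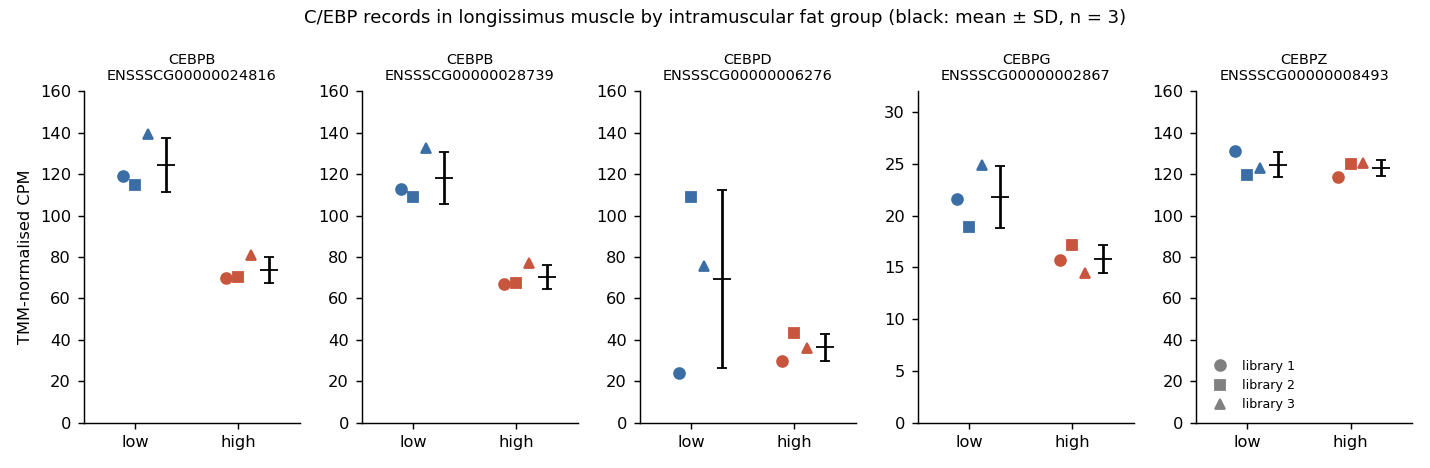
TMM-normalised CPM of the 5 C/EBP records in each library of the low (blue) and high (red) group, with mean ± SD (n = 3) in black; the CEBPG panel has its own scale. The CEBPB and CEBPG libraries separate by group, the low CEBPD libraries lie between 23.9 and 109, and the CEBPZ libraries overlap.

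The second CEBPB record, ENSSSCG00000028739 (chromosome 17, 58041491 to 58043061, plus strand), gave almost the same picture. It has the same span as the first, 1571 bases, and starts 93809 bases after the end of it. Its fold change was -0.74 (SE 0.13, adjusted p = 0.0910). Its values were 113, 109 and 132 TMM-normalised CPM in low libraries 1 to 3 and 66.8, 67.4 and 77.2 in high libraries 1 to 3.

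The reads of the second CEBPB record were between 94.4% and 95.2% of those of the first in the low libraries and between 95.4% and 95.5% in the high libraries. The SD of this percentage was 0.439 in the low and 0.0685 in the high group, whereas counting error in independent reads would give 2.09 to 2.19 and 2.83 to 3.31. The counts of the 2 records thus agreed more closely than separate reads would, so the second record is no independent support for the first. The RefSeq annotation of the Sscrofa11.1 assembly lists 1 gene named CEBPB. With the reads of both records added up the fold change was -0.75 (SE 0.14, adjusted p = 0.0924).

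**Figure D2:**
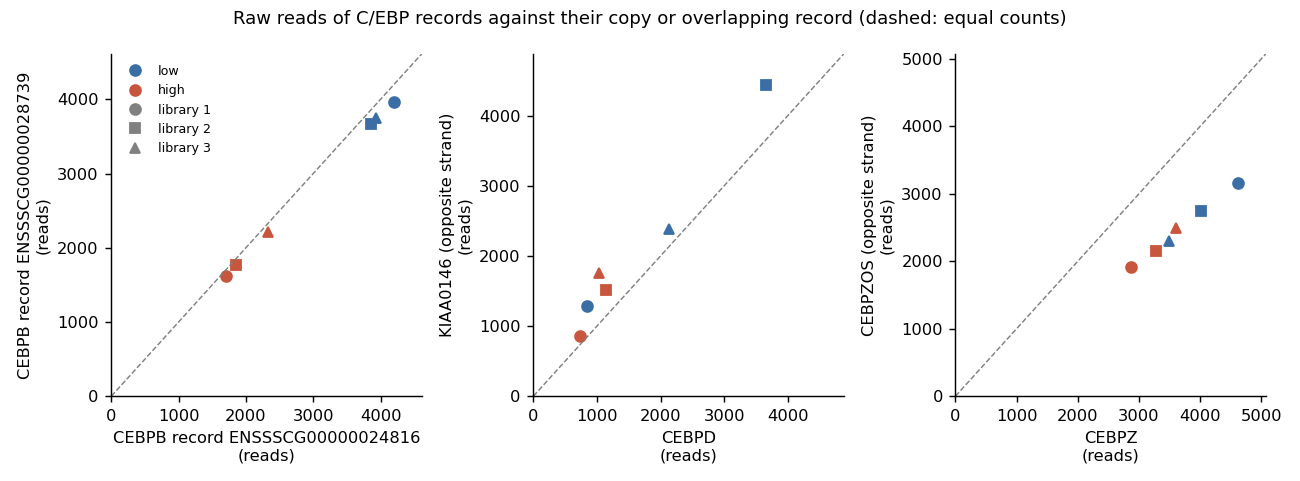
Raw reads per library of the second CEBPB record against the first, of KIAA0146 against CEBPD, which lies within it on the other strand, and of CEBPZOS against CEBPZ, which it overlaps; the dashed line marks equal counts. The CEBPB points follow a straight line just under equality, and the KIAA0146 points lie above it.

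CEBPD, the gene of C/EBP delta, had the lowest estimate of the family but no separation of the groups. ENSSSCG00000006276 (chromosome 4, 87369054 to 87370589, plus strand) stood at 23.9, 109 and 75.6 TMM-normalised CPM in low libraries 1 to 3. In high libraries 1 to 3 it stood at 29.96, 43.2 and 35.9. Low libraries 2 and 3 were above every high library, while low library 1 was below all of them. The highest low library was 4.55-fold above the lowest, against 1.44-fold among the high libraries.

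For CEBPD the log2 fold change was -0.93 (SE 0.47, 95% interval -2.03 to 0.16, adjusted p = 0.324). Without low library 1 it was -1.33 (SE 0.22, adjusted p = 0.0595) and without low library 2 it was -0.45 (SE 0.45, adjusted p = 0.634). The means were 69.4 ± 42.8 in the low and 36.4 ± 6.62 in the high group (SD, n = 3). In the authors' deposited table its false discovery rate is 0.180.

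CEBPD lies wholly inside KIAA0146 (ENSSSCG00000006277, chromosome 4, 87368561 to 87610320), a gene on the opposite strand named SPIDR in the Ensembl name table, which encodes a scaffold protein of DNA repair. The deposited table gives both records the same Entrez number. KIAA0146 had 1281, 4442 and 2382 reads in low libraries 1 to 3 and 865, 1508 and 1761 reads in high libraries 1 to 3. CEBPD had fewer reads in every library, namely 842, 3663 and 2139 in the low and 728, 1136 and 1031 in the high libraries. Its count was between 58.6% and 89.8% of that of KIAA0146.

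The order of the low libraries was the same for both records, and that of the high libraries was not. No source used here states whether counting used the strand, so reads of CEBPD and of its antisense partner cannot be told apart. For KIAA0146 the estimate was -0.71 on the log2 scale (SE 0.43, adjusted p = 0.396). After subtraction of the CEBPD reads it kept between 8.59 and 23.1 TMM-normalised CPM in the low and between 5.64 and 25.4 in the high group, which overlap. This subtraction takes every CEBPD read to be counted for KIAA0146 too, which is not known.

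CEBPG, the gene of the dimer partner C/EBP gamma, had lower values in every high library than in any low library (ENSSSCG00000002867, chromosome 6, 38712187 to 38719862, plus strand). It stood at 21.6, 18.9 and 24.9 TMM-normalised CPM in low libraries 1 to 3 and at 15.7, 17.2 and 14.5 in high libraries 1 to 3. The nearest libraries of the groups were low library 2 and high library 2. The log2 fold change was -0.47 (SE 0.15, 95% interval -0.81 to -0.12, adjusted p = 0.182). It did not pass in DESeq2 either (adjusted p = 0.103).

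CEBPZ, which encodes a CCAAT-binding protein of the nucleolus, did not differ detectably between the groups (ENSSSCG00000008493, chromosome 3, 109397122 to 109422353, minus strand). Its values were 131, 119 and 123 TMM-normalised CPM in low libraries 1 to 3 and 118, 125 and 125 in high libraries 1 to 3. The log2 fold change was -0.02 (SE 0.11, adjusted p = 0.935), and its 95% interval, -0.29 to 0.24, does not contain the estimate for CEBPB. CEBPZOS, on the opposite strand, covers 32.5% of the span of CEBPZ, and its count was between 65.6% and 69.3% of that of CEBPZ in all libraries, with a log2 fold change of -0.03 (SE 0.12).

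Levels per length could be set side by side for CEBPB and CEBPD, which are intronless genes with records of 1571 and 1536 bases. In the low group the first CEBPB record had 79.2 and CEBPD 45.2 TMM-normalised CPM per kilobase of record. In the high group they had 46.99 and 23.7. By its first record alone, CEBPB was thus the more abundant of the pair per length in the mean of each group. In low library 2 the levels were close, with a log2 ratio of CEBPB to CEBPD of 0.08. Whether reads were shared out between the CEBPB records or counted for both is not known, so its full level is not given.

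Ratios between records within a library remove any factor that scales a whole library. The log2 ratio of CEBPB (first record) to CEBPD was 2.32, 0.08 and 0.88 in low libraries 1 to 3 and 1.22, 0.71 and 1.17 in high libraries 1 to 3. The group means differed by -0.06 (high minus low), with an exact two-sided permutation p of 1. With 3 libraries against 3 this test cannot go below 0.1. The low libraries alone spanned the whole range of the high ones.

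The ratio of CEBPB to CEBPZ separated the groups. Its log2 value was -0.14, -0.06 and 0.18 in low libraries 1 to 3 and -0.76, -0.82 and -0.63 in high libraries 1 to 3, a difference of -0.73 (exact permutation p = 0.1, adjusted p = 0.25 over the 10 pairs of records compared). The ratio of CEBPG to CEBPZ differed by -0.44 (exact permutation p = 0.1, adjusted p = 0.25), again with no overlap. Pairs other than CEBPB with CEBPD were added after the values had been seen.

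**Figure D3:**
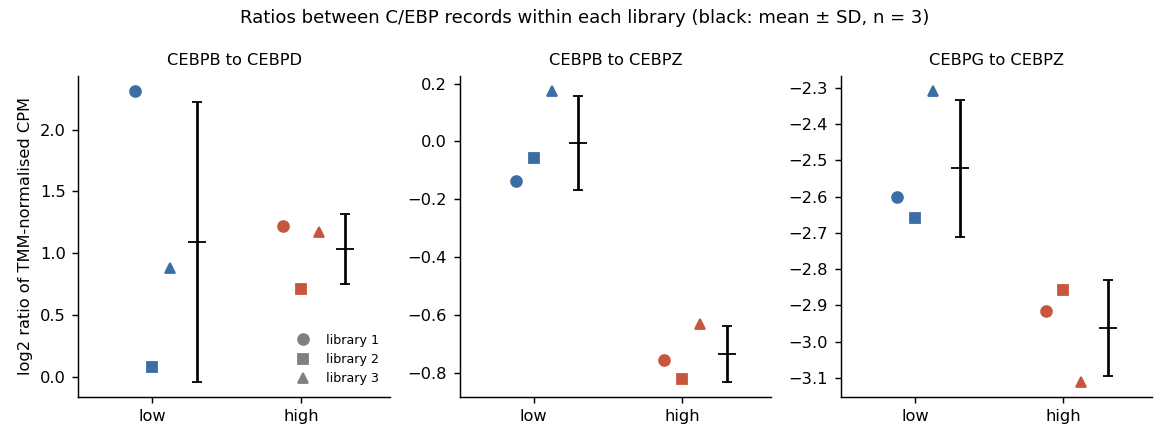
Log2 ratios of TMM-normalised CPM between C/EBP genes within each library, by group, with mean ± SD (n = 3) in black; the vertical scales differ. The groups are mixed for CEBPB to CEBPD and separate for CEBPB to CEBPZ and CEBPG to CEBPZ.

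Across the 6 libraries CEBPB and CEBPG had a Pearson correlation of 0.88 on log2 CPM, and 0.36 for deviations from the group means. CEBPB and CEBPD had 0.46 and 0.08. These are descriptions over 6 libraries that share the group difference. Apart from its own second record, the genes with the pattern most like the first CEBPB record were MAZ (r = 0.992), RNMTL1 (0.99), DNAJC19 (0.989) and LRWD1 (0.988), with log2 fold changes between -0.39 and -0.33 and none past the threshold. For CEBPD they were ZYX (r = 0.999), MOV10 (0.997), HK1 (0.997), RNF157 (0.992) and PDI-P5 (0.991). For CEBPG they were FARP1, GADD45GIP1, RASGEF1C, EFEMP2 and LPCAT3, with r between 0.983 and 0.989. For CEBPZ they were ZCCHC9, ASPA, C18orf21, SH3KBP1 and MUTED, with r between 0.925 and 0.9603.

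The CEBPB and CEBPD records are short, and 4.54% and 4.45% of all records have a smaller span. Records of at most 2 kb had a median log2 fold change of -0.16 over 430 records, and longer ones -0.03 over 7231. The estimate was negative in 73.7% of the short and 53.7% of the longer records. Span and log2 fold change had a Spearman correlation of 0.407 over all records. When the trend with span was taken out in each library, CEBPB had -0.58 (SE 0.11, adjusted p = 0.113), CEBPD -0.77 (SE 0.48, adjusted p = 0.467) and CEBPG -0.33 (SE 0.14, adjusted p = 0.329). The estimates of the gene lists below are not corrected for this trend. Among the genes named there, JUNB and CCL2 have short records, and ATF6, TCF7L2, EBF2 and NCOA1 have long ones.

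**Figure D4:**
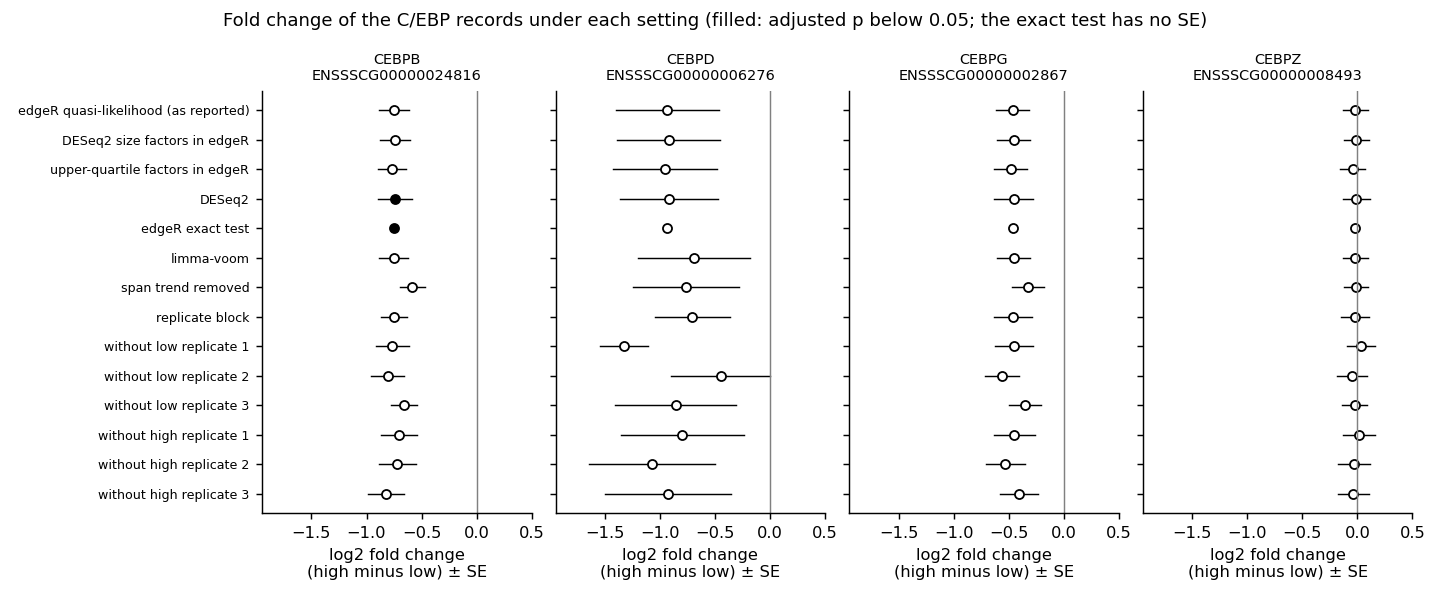
Log2 fold change (high minus low) of the first CEBPB record, CEBPD, CEBPG and CEBPZ under 14 settings, with the standard error as a line and filled points where the adjusted p is below 0.05. Of the settings shown, CEBPB passed in DESeq2 and in edgeR's exact test, and the CEBPD estimate moved between -1.33 and -0.45 as low library 1 or 2 was left out.

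Genes that act with C/EBPs were taken from 7 lists, and none of their records passed the threshold in edgeR's quasi-likelihood test. Among 19 records of other leucine zipper factors that pair with or resemble C/EBPs, 11 had a positive and 8 a negative estimate (high minus low), beside 3463 positive among all 7661 records. The median log2 fold change was 0.02 against -0.04 for all records. At an unadjusted p under 0.05, 4 were higher (10.3% of all records) and 1 lower (8.41%). DESeq2 called 2 higher (4.92% of all records) and 1 lower (1.84%). The groups did not overlap in 4 records that were higher (13.5% of all records) and 2 that were lower (13.3%). JUNB, an AP-1 subunit induced by cytokines, had -1.14 (SE 0.24, adjusted p = 0.1096). It stood at 48.1, 82.7 and 90.96 TMM-normalised CPM in low libraries 1 to 3 and at 28.7 and 33.8 in high libraries 1 and 3. High library 2, the highest of its group, was also below every low library.

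In the other direction, BACH1, a repressor of the haem oxygenase gene, had 1.07 (SE 0.15, adjusted p = 0.0587). CREB3L2, a membrane-bound factor of the secretory pathway, had 0.94 (SE 0.17, adjusted p = 0.0910), and ATF6, a sensor of misfolded proteins, had 0.37 (SE 0.14, adjusted p = 0.226). The groups did not overlap in these 3 genes. CREB3L2 stood at 5.83, 6.92 and 5.41 TMM-normalised CPM in low libraries 1 to 3 and at 12.3, 12.4 and 10.2 in high libraries 1 to 3. Listed records exceed a deposited CPM of 10 in at least 3 libraries. CREB3L2 met this limit only through the high libraries, so its lack of overlap follows from the limit. ATF4, listed as CREB2, which dimerises with C/EBP gamma, had -0.31 (SE 0.21), and DDIT3, the C/EBP homologous protein that blocks C/EBP beta from binding DNA, had 0.15 (SE 0.18).

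Among 29 records of factors that induce or phosphorylate C/EBP beta and delta, 20 had a positive and 9 a negative estimate, and the median was 0.11. These records are of 28 genes, as SP3 has more than 1 record, all with a positive estimate. Unadjusted p was under 0.05 for 5 higher and 0 lower records (10.3% and 8.41% of all records), and DESeq2 called 2 higher (4.92% of all records). The receptor chains LIFR and IL6ST (gp130), through which interleukin-6 type cytokines signal, had log2 fold changes of 0.75 and 0.77, with SE 0.20 and 0.21 and adjusted p of 0.138 and 0.146. LIFR stood at 47.4, 43.3 and 28.1 TMM-normalised CPM in low libraries 1 to 3 and at 66.2, 64.9 and 68.8 in high libraries 1 to 3. The glucocorticoid receptor NR3C1 had 0.65 (SE 0.21, adjusted p = 0.183). STAT3, the transcription factor downstream of gp130, had -0.27 (SE 0.21, adjusted p = 0.507) with overlapping groups. The other receptor chains of the list, IL6R and OSMR, had -0.44 (SE 0.24) and -0.25 (SE 0.25) with overlapping groups, and were added after their values were seen.

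Of 20 records of glucocorticoid-induced genes, 16 had a positive and 4 a negative estimate, beside 3463 positive among all 7661 records, and the median was 0.38. These records are of 18 genes, as PIK3R1 and CDKN1A each have more than 1 record, all with a positive estimate. None passed the threshold, and unadjusted p was under 0.05 for 1 higher and 0 lower records (10.3% and 8.41% of all records). ZBTB16, a zinc finger gene strongly induced by glucocorticoids, had 0.65 (SE 0.18, adjusted p = 0.147). It was the 1 of 20 records called by DESeq2, which called 4.92% of all records higher. FKBP5, a co-chaperone of the receptor, had 0.54 (SE 0.30), and KLF15, a factor of amino acid and lipid metabolism, 0.28 (SE 0.41). High library 3 held the highest FKBP5 value, 182 TMM-normalised CPM, against 73.6 and 111 in high libraries 1 and 2.

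Of 12 records of STAT3 and NF-kappaB target genes, 6 had a positive and 6 a negative estimate (median 0.01), with 1 in each direction at an unadjusted p under 0.05 (10.3% of all records higher and 8.41% lower). The chemokine CCL2 had -1.63 (SE 0.47, adjusted p = 0.155) and was the 1 record called by DESeq2, which called 1.84% of all records lower. It stood at 9.58, 27.6 and 37.3 TMM-normalised CPM in low libraries 1 to 3 and at 7.24, 10.6 and 6.10 in high libraries 1 to 3. As for CEBPD, low libraries 2 and 3 were above every high library and low library 1 was not. The survival factor MCL1, listed as MCL-1, had 0.39 (SE 0.13, adjusted p = 0.197).

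Adipogenic transcription factors and regulators other than C/EBPs were evenly split, with 8 positive and 8 negative estimates among 16 records (median -0.02). At an unadjusted p under 0.05, 5 were higher and 1 lower (10.3% and 8.41% of all records), and DESeq2 called 1 higher (4.92% of all records). TCF7L2, an effector of Wnt signalling, had 0.67 (SE 0.16, adjusted p = 0.118). It stood at 9.15, 9.21 and 7.95 TMM-normalised CPM in low libraries 1 to 3, so it is listed only through the high libraries. KLF7, a repressor of fat cell formation, had 0.60 (SE 0.22), and EBF2, a factor of preadipocytes, had 0.54 (SE 0.20). The oxysterol receptor NR1H3, listed as LXR, had -0.37 (SE 0.15, adjusted p = 0.251).

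Cofactors and regulators of C/EBP stability gave 12 positive and 12 negative estimates among 24 records (median 0.01). Of these, 7 higher and 0 lower records had an unadjusted p under 0.05 (10.3% and 8.41% of all records), and DESeq2 called 4 higher (4.92% of all records). The coactivators NCOA1 and NCOA3 (listed as SRC3) had log2 fold changes of 0.83 and 0.80, each with SE 0.19, and adjusted p of 0.113 and 0.114. FBXW7, a ubiquitin ligase subunit that marks phosphorylated C/EBPs for degradation, had 0.67 (SE 0.16, adjusted p = 0.118). Its values were 20.5, 24.5 and 21.4 TMM-normalised CPM in low libraries 1 to 3 and 36.1, 40.3 and 28.9 in high libraries 1 to 3.

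The integrated stress response, in which ATF4 and C/EBPs act together, had 12 records, 6 with a positive and 6 with a negative estimate, and a median of -0.00. At an unadjusted p under 0.05, 1 was higher and 0 lower (10.3% and 8.41% of all records), and DESeq2 called 0. The kinase EIF2AK3 had 0.60 (SE 0.20, adjusted p = 0.194).

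**Figure D5:**
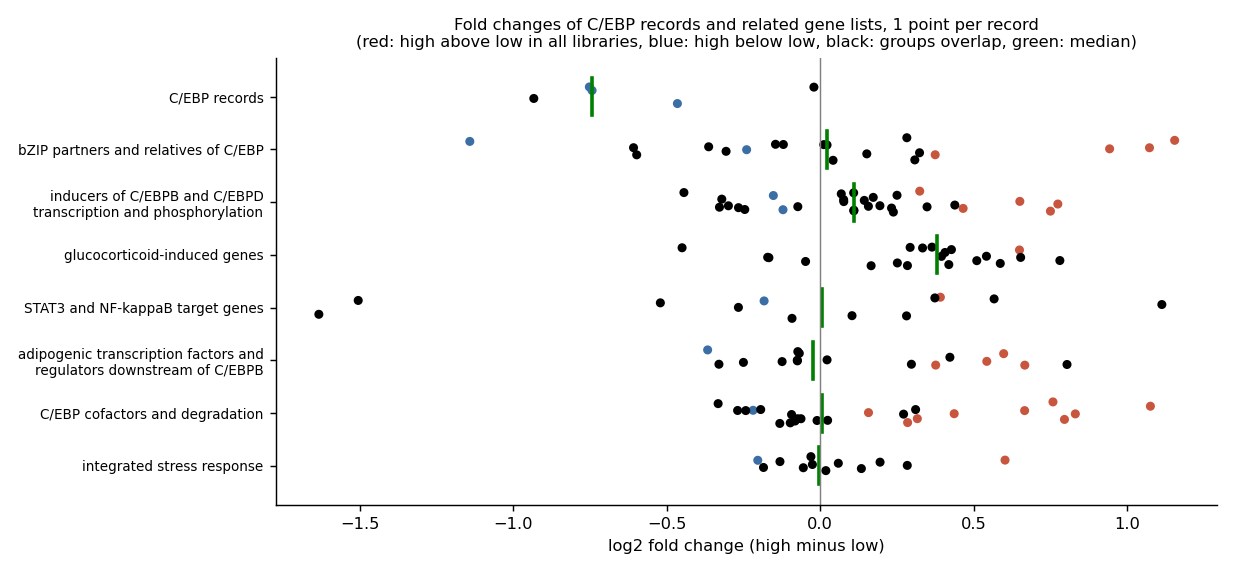
Log2 fold change (high minus low) of every measured record of the C/EBP genes and of 7 related lists, with the list median in green and points coloured where the groups do not overlap. All 5 C/EBP records lie at or below -0.02, and the medians of the other lists lie between -0.02 and 0.38. The values are not corrected for the trend with record span.

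In bulk muscle, fewer cells of a type and less RNA per cell cannot be told apart, and C/EBPs are made by several cell types of muscle. The 8 adipocyte marker records summed to between 233 and 431 TMM-normalised CPM in the high and between 187 and 231 in the low libraries, and the 12 fibroblast and progenitor records to between 3251 and 4304 and between 1495 and 2895. The 5 satellite cell records summed to between 642 and 749 in the high and between 384 and 509.9 in the low libraries. Within these lists the members did not all go 1 way, with 5 of 8, 10 of 12 and 3 of 5 positive estimates. The satellite cell sum was mostly MYF5, at 272, 388 and 294 TMM-normalised CPM in low libraries 1 to 3 and 641, 565 and 538 in high libraries 1 to 3. MYOG, a factor of differentiating muscle cells, had -1.26 (SE 0.28, adjusted p = 0.111) with every high library below the low ones, and VCAM1 had -0.05 (SE 0.16). Among adipocyte markers, PLIN1, a coat protein of lipid droplets, had 2.75 (SE 0.32, adjusted p = 0.0404). The other positive ones were CIDEC (listed as CIDE-C) at 2.38 (SE 0.55), RETSAT at 1.81 (SE 0.29), CIDEA at 1.17 (SE 0.26) and LIPE at 1.15 (SE 0.45). None of these others passed the threshold. In PLIN1, CIDEC and CIDEA every low library was below 10 TMM-normalised CPM. These genes are thus listed only through the high libraries, and their lack of overlap follows from that. AQP7 had -0.66 (SE 0.24), CFD -0.24 (SE 0.22) and ATGL -0.02 (SE 0.25). DESeq2 called 4 of the 8 higher and 0 lower, beside 4.92% and 1.84% of all records. PLIN1, CIDEC and CIDEA are among those called. These markers were named after their values were seen. The 6 macrophage records summed to 86.3, 212 and 255 in low libraries 1 to 3 and to between 147 and 219 in the high libraries. Low library 1 was thus the lowest for this sum and for CEBPD. Of the macrophage records 2 had a positive estimate, CSF1R at 0.54 (SE 0.24) and MRC1 at 0.76 (SE 0.36). The 4 records of C1QA, C1QB and C1QC had negative ones, between -0.20 and -0.05. These genes too were named after their values were seen. Neutrophil markers are not analysed here. The part of any cell type in the C/EBP values was not tested.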

How the data were processed

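Per the labels' protocols, RNA was extracted with TRIzol and made into Illumina TruSeq libraries. The submitters' processing notes name BWA 0.6.2, TopHat2 2.0.4, Trimmomatic 0.22 and FastQC 0.10.1 without roles. How reads were counted, with which strand setting, build and annotation, is not given in the sources used here. Positions are printed as deposited. The authors deposited whole-number read counts and CPM (counts per 1e6 reads of a library total), from which the library totals were recovered. All 7661 records exceed a deposited CPM of 10 in at least 3 libraries. A record below this limit in a whole group is thus listed only where every library of the other group exceeds it. For such a record the lack of overlap follows from the limit. The authors' log2 fold changes (low over high, turned around here) and mean log2 CPM, p-values and false discovery rates are deposited beside them, per the file headers. A shorter deposited list of records was not used.

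Counts were fitted for all records in edgeR 4.0.16 (R 4.3.3) with TMM factors, filterByExpr (7661 records kept) and the quasi-likelihood test, with the group as the only term. SE is the size of the log2 fold change over the root of the F statistic, and adjusted p-values without a named tool come from this test. Alternatives were DESeq2 1.42.0, edgeR's exact test, limma-voom (limma 3.58.1), other scalings and filters, a span correction, a replicate block and each library left out. The quasi-likelihood, exact and DESeq2 fits were tested on simulated data. There a larger share of the calls was false in DESeq2 and the exact test than in the quasi-likelihood test. The quasi-likelihood test recovered fewer of the 2-fold changes put in than the other tests did. These outcomes come from a single simulated data set with dispersions estimated by edgeR. Gene names came from the deposited table (6417 records), an Ensembl name table (401) and RefSeq (170), and 673 had none.

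The C/EBP records and the gene lists were chosen with earlier results of these data known. From each list the text names up to 3 records per direction by unadjusted p under 0.05, plus NR3C1, STAT3, ATF4, DDIT3, KLF15 and FKBP5 (SOCS3 and SREBF1 are not analysed here), the 5 genes most correlated with each C/EBP record (log2 TMM-normalised CPM, prior count 2), and the nearest records on each side of it. Promoter and protein sequences are not used here. The sources used here state no pairing of the animals by number. Deviations from the group means correlated between -0.0815 and 0.118 for same-numbered libraries and between -0.185 and 0.144 for differently numbered ones. With so few libraries these values cannot show whether animals were paired.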

Additional observations from a re-analysis of the deposited data

How the results depend on the processing

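The older quasi-likelihood method and the removal of 1 CEBPB record were chosen after seeing the data, and neither changed a call of a C/EBP record. For the first CEBPB record, DESeq2 gave -0.74 and the exact test -0.75, both past the threshold, for the second -0.73 and -0.74, and for the sum -0.74 and -0.75; without each library the values ran from -0.82 to -0.66, -0.81 to -0.65 and -0.82 to -0.65, none past it. CEBPD ran from -1.33 to -0.45, CEBPG from -0.56 to -0.35 and CEBPZ from -0.050 to 0.033, turning positive without high library 1 (0.016) or low library 1 (0.033). The log2 difference of CEBPB to CEBPD ran from -0.56 to 0.56 (second record -0.55 to 0.56), positive without high library 2 (0.11 and 0.12) or low library 1 (0.56 and 0.56). The replicate block (replicate numbers share no stated source) gave 2 calls over the table, against 11 without it, and gave CEBPB -0.75 (adjusted p = 0.164) and CEBPD -0.71. The table had 518 calls in DESeq2, 316 in the exact test and 1 to 30 without each library (1 without low library 2, 2 without high library 2, 6 without high 1, 7 without high 3, 30 without low 1). The causes of these shifts were not tested. DESeq2 called 3 of 19 leucine zipper, 2 of 29 inducer and 1 of 20 glucocorticoid records. It also called 1 of 12 STAT3 and NF-kappaB, 1 of 16 adipogenic and 4 of 24 cofactor records. The quasi-likelihood test called 0 in each list. Over all records DESeq2 called 4.92% higher and 1.84% lower. A mean CPM of at least 20 removed CEBPG. CEBPG rests on the fewest reads of the 5 records, 381 to 761 per library.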

Other observations

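Estimates of the records near the C/EBP genes did not share one direction. Within 1 Mb of the first CEBPB record, 8 of 15 other records had a negative and 7 a positive estimate (high minus low), with log2 fold changes between -0.45 and 0.33, and none passed the threshold (smallest edgeR quasi-likelihood adjusted p = 0.298). UBE2V1, a ubiquitin-conjugating enzyme variant and the nearest before CEBPB, had 0.02 (SE 0.12), and PTPN1, a phosphatase of insulin signalling and the nearest after it, had -0.45 (SE 0.28). Near CEBPG, 9 of 10 records had a positive estimate, beside 3463 of all 7661, and none passed (smallest adjusted p = 0.131), with PEPD, a dipeptidase gene 4373 bases away, at 0.16 (SE 0.17) and SLC7A9, an amino acid transporter, at 0.10 (SE 0.19). The nearest record before CEBPD was PRKDC, the DNA-dependent protein kinase 25751 bases away, which had 1.01 (SE 0.32, adjusted p = 0.180), opposite in sign to CEBPD and without overlap of the groups. Near CEBPZ, 8 of 9 records had a positive estimate and none passed (smallest adjusted p = 0.154), with CDC42EP3 at 0.17 (SE 0.19) before it and PRKD3, a protein kinase, at 0.40 (SE 0.16) after it.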
